A study of Mus musculus with 188 samples.

Results

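Heme synthesis was followed through 7 of its enzymes, Alas1, Alad, Uros, Urod, Cpox, Ppox and Fech, in cultured mouse brain slices exposed to heme, to hemoglobin (Hb) or to their plasma binding proteins. The enzymes were taken by name from the textbook pathway, with earlier results of these data known. All 7 were found by symbol among 25655 genes listed in sequencing batch 1 and 25528 listed in batches 2 and 3, and all 7 passed the filter on low counts in both sets (15554 and 16473 genes tested).

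Heme is built from glycine and succinyl-CoA. Alas1 makes 5-aminolevulinate in the mitochondrion and is the rate-limiting enzyme of non-erythroid cells, brain included. Alad, Uros and Urod then assemble and trim the tetrapyrrole ring in the cytosol, Cpox and Ppox oxidise it on the way back into the mitochondrion, and Fech inserts iron to give heme. Heme represses its own synthesis at Alas1, through transcription, mRNA stability and import of the enzyme, and this feedback is the best known regulation of the pathway in liver. Hmox1, heme oxygenase 1, opens the ring again and is induced by heme.

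The slices were 150 µm coronal sections from male and female C57BL/6J mice aged 6 to 8 weeks, perfused before sectioning and grown with 2 slices per insert, and treatment began on day 7 of culture. In batch 1 the groups of 10 libraries each were control, heme-albumin at 12.5, 50, 200 or 400 µM, and heme bound to hemopexin (hemeHpx) at 200 µM, all collected at 24 h. In batches 2 and 3 the groups, each collected at 24 h and at 48 h, were control, Hb at 200 and 400 µM, Hb with haptoglobin (HbHp) at 200 and 400 µM, and haptoglobin (Hp) alone at 400 µM, with 4 to 12 libraries per group. All mice were wild type, no group carried an engineered allele, and the added proteins were of human origin. The titles of the hemeHpx libraries name haptoglobin, whereas their treatment tags and library names give hemopexin, which was followed.

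Poly(A) RNA of whole slices was sequenced, with 11038484 to 44199060 counts per library in batch 1 and 15587938 to 54174784 in batches 2 and 3. Levels are given in CPM, the usual count scaled to library size, with library sizes adjusted by trimmed mean of M-values, and calls are edgeR quasi-likelihood tests with a Benjamini-Hochberg adjusted p under 0.05 over all genes. The tissue is a mixture, so fewer cells of a type and less RNA per cell cannot be told apart. Microglia and other phagocytes thin out in such cultures. Neuron, astrocyte, oligodendrocyte and microglia markers were present in every group, whereas the summed level of 7 erythroid markers was at most 0.360 CPM in any library, and Alas2, the erythroid counterpart of Alas1, did not pass the filter on low counts. Libraries carried codes that recur across groups and, in places, within a group. Whether a code stands for a single animal is not stated, and the main fit held no term for it. The p-values therefore measure the spread between libraries, with same-coded libraries counted as separate. Library names in batches 2 and 3 carried E1 or E2, taken here as 2 culture experiments. All HbHp libraries came from batch 3 and E2, and all Hp libraries from batch 3, so batch and experiment were terms of the fit there. No comparison was made across batch 1 and the others. The CPM levels take no account of batch and experiment, and the share of all genes without overlap between groups was not counted.

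Among control libraries the enzymes differed severalfold per length of exon. In batch 1, Urod was highest at 12.9 ± 1.09 CPM per kb (SD, n = 10), followed by Alas1 at 11 ± 0.593, Cpox at 8.55 ± 1.29, Alad, Ppox and Fech between 5.90 and 7.49, and Uros at 3.12. Urod and Alas1 ranges overlapped, as did those of Alas1 and Cpox. In batches 2 and 3, Cpox led at 24 h (12.5 CPM per kb) and Urod at 48 h (11.8 CPM per kb), Alas1 stood at 9.70 and 10.7, and Uros was lowest at both times.

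Since Alas1 carried most of the changes described here, its promoter window is shown beside that of Uros, the other enzyme whose window held the core motif of the factor NRF1, an activator of nuclear genes for mitochondrial proteins. Capitals mark each match, on either strand, to GCGCA followed by any base and GCGC, and the windows, credited to RefSeq on build GRCm38.p6, run from 250 bases before to 50 bases after an annotated start on the minus strand. Alas1 (chr9:106247905-106248204) and Uros (chr7:133709246-133709545) read as follows.
Alas1: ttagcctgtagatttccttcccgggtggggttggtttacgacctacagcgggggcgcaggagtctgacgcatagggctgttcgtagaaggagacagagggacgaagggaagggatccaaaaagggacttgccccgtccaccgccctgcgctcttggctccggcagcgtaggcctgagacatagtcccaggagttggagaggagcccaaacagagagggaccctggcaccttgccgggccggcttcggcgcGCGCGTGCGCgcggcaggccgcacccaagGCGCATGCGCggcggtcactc
Uros: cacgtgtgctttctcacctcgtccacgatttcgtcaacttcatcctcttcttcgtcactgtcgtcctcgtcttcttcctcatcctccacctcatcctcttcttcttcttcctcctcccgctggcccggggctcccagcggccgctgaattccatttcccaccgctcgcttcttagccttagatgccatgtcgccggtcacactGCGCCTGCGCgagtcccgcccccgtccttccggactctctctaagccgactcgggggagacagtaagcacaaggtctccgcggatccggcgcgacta
The Alas1 window held 2 matches, beginning at bases 251 and 280 of the window, and a second annotated Alas1 start further downstream shared them at bases 27 and 56. The Uros window shown held 1 match, at base 204, and the window of a second annotated Uros start held none. The same letters were found in 4.6% of 32851 promoter windows, and in none of the windows of Alad, Urod, Cpox or Ppox. Fech had no window in the table. The antioxidant response element core TGACNNNGC occurred in 12.4% of all windows and the cyclic AMP response element TGACGTCA in 1.79%, and neither was found in any window of these enzymes. The E-box CACGTG (7.15% of all windows) was found in Alad, Uros and Urod, and the GC box GGGCGG was found in 35.7% of all windows. A match describes letters and is not evidence of binding.

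Heme-albumin, which delivers heme on its low-affinity plasma carrier, lowered Alas1 at every dose tested, and the other enzymes moved little. Alas1 mRNA fell to 0.794 of the control mean at 12.5 µM, 0.70 at 50 µM, 0.527 at 200 µM and 0.524 at 400 µM (n = 10 per group). Control libraries spanned 63.4 to 73.7 CPM with a median of 67.5, and their mean was 67.9 ± 3.66. At 12.5 µM the lowest, median and highest Alas1 levels were 50.8, 52.6 and 61.9 CPM. At 50 µM they were 41.4, 47.2 and 54.5 CPM. No library treated with either dose reached the lowest control. At 200 µM Alas1 lay between 32.4 and 40.5 CPM with a median of 34.9, and at 400 µM between 27.8 and 40.1 CPM with a median of 36.6. The libraries at 200 µM were all below those at 50 µM, whereas the ranges of 200 and 400 µM overlapped, with 3 of 10 libraries at 400 µM below all those at 200 µM.

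**Figure D1:**
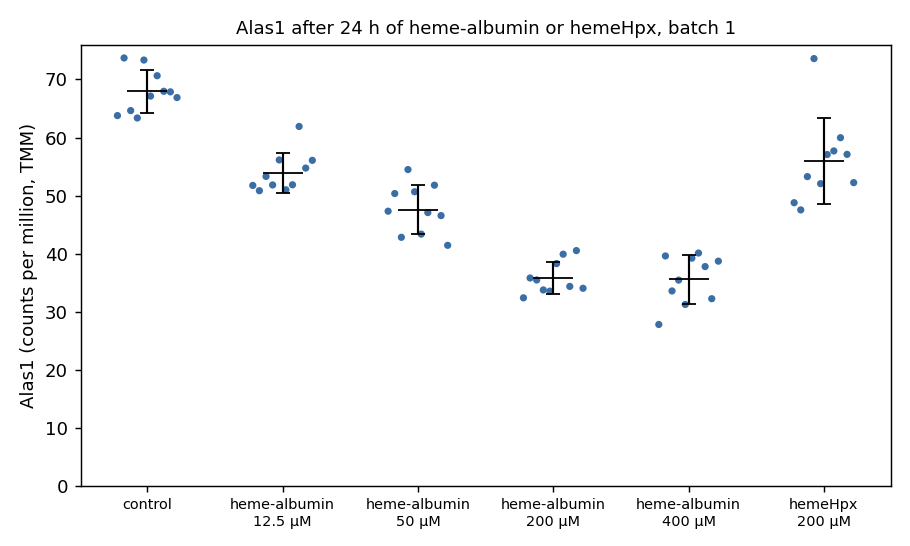
Alas1 level (CPM, vertical axis from 0) in each batch 1 library by treatment (horizontal axis), with the mean and SD of the 10 libraries per group. All heme-albumin libraries sit below the lowest control at 63.4 CPM, the groups at 200 and 400 µM are level, and 1 hemeHpx library reaches 73.6 CPM.

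The fitted change of Alas1 against control was -0.33 on the log2 scale at 12.5 µM (95% interval -0.45 to -0.21, adjusted p = 0.00617). Alas1 was the sole gene called lower at that dose, where 7 of 15554 genes (0.045%) were called in all and 6 of them were higher. At 50 µM the change was -0.51 (adjusted p = 3.3e-08), with 0.463% of genes called. Alas1 ranked 2 of all genes by p at 12.5 µM and 4 at 50 µM. At 200 µM it fell by 0.92 (adjusted p = 1.3e-17) and had the smallest p of any gene, while 13.6% of genes were called. At 400 µM it fell by 0.93 (adjusted p = 9.9e-19), with 29% of genes called. Alas1 was the only enzyme called at 12.5, 50 and 200 µM.

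Steps between neighbouring doses were uneven for Alas1. From 12.5 to 50 µM the difference was -0.18 (SE 0.06, 95% interval -0.30 to -0.06). It did not pass the test over all genes (unadjusted p = 0.00381, adjusted p = 0.9998), though 8 of 10 libraries at 50 µM lay below all those at 12.5 µM. In that comparison 0% of genes were called, with 196 genes at an unadjusted p under 0.05. From 50 to 200 µM Alas1 fell by 0.41 (adjusted p = 9.96e-05) and had the smallest p of all genes, of which 0.797% were called. From 200 to 400 µM the difference was -0.01 with a 95% interval of -0.13 to 0.11 (adjusted p = 0.977), where 1.27% of genes were called. Over the order of the 5 doses including control, Alas1 changed by -0.25 per step (adjusted p = 4.9e-22), in a test that called 33.9% of genes.

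Of the cytosolic enzymes, Alad and Urod had small differences in opposite directions. Alad, which condenses 5-aminolevulinate to porphobilinogen, spanned 9.09 to 16.8 CPM in controls (median 14.5) and 14.6 to 17.6 CPM at 400 µM (median 15.8). These ranges overlapped, with 4 of 10 treated libraries above all controls. Alad was 0.20 higher on the log2 scale at 400 µM (SE 0.07, adjusted p = 0.0392), and its differences at 12.5, 50 and 200 µM, 0.19, 0.17 and 0.18, did not pass the test (adjusted p = 0.614, 0.379 and 0.0938). Fitted on the control and 400 µM libraries alone, the Alad call at 400 µM was lost (adjusted p = 0.129). Controls had the lowest median total count in batch 1, 16404294, against 20415944 to 25519549 in the other groups. The control libraries lowest in Alad, at 9.09, 11.3 and 12.7 CPM, held 11038484, 12600329 and 11573716 counts, but one with 11949807 counts held 15.3 CPM. The part of depth in the Alad result was not tested. Urod, which removes carboxyl groups from uroporphyrinogen, went from 28.7 to 37.8 CPM in controls (median 33.9) to 28 to 33.8 CPM at 400 µM (median 30.6). Its difference at 400 µM was -0.11 (adjusted p = 0.105), and over the dose order it changed by -0.03 per step (adjusted p = 0.0485). That last call was lost with another scaling of library sizes and with no filter on low counts.

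The remaining enzymes did not pass the test at any dose of heme-albumin. For Uros, which closes the ring, the 95% intervals over the doses lay within -0.17 to 0.18 on the log2 scale. Cpox differences ran from -0.11 to -0.04, Ppox differences from -0.01 to 0.06, and Fech differences from -0.02 to 0.08. Fech, the iron-inserting last enzyme, had a 95% interval of -0.06 to 0.12 at 400 µM, where Alas1 had fallen by 0.93.

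**Figure D2:**
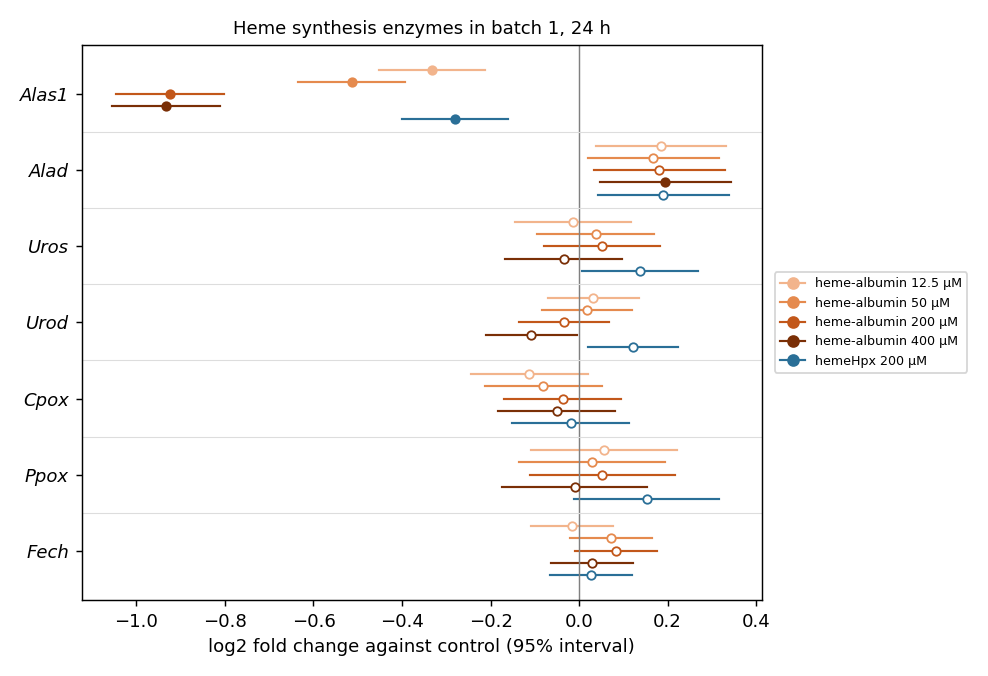
Fitted log2 fold change against control (horizontal axis, bars 95% intervals) of the 7 enzymes (vertical axis) for the heme-albumin doses and hemeHpx in batch 1, with filled points at an adjusted p under 0.05. Alas1 lies to the left at every dose, down to -0.93 at 400 µM, while the other enzymes stay within 0.20 of 0.

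Some astrocyte and microglia markers were also lower at the higher doses of heme-albumin. At 200 µM, 2 of 5 astrocyte and 5 of 6 microglia markers were called lower, where 6.6% of all genes were called lower. At 400 µM, 3 of 5 and 2 of 6 were called lower, where 14.3% of all genes were. No neuron, oligodendrocyte or endothelial marker was called lower at either dose. The summed level of 5 astrocyte markers had a median of 9357 CPM in controls (6112 to 10580), 7056 CPM at 200 µM and 6667 CPM at 400 µM (4758 to 8554). The sum of 6 microglia markers had a median of 370.3 CPM in controls (172.1 to 920.4) and 249.3 CPM at 200 µM (128.5 to 378.4). At 12.5 and 50 µM none of these markers was called, but all 6 microglia markers had fitted differences below 0 at both doses, with medians of -0.26 and -0.23. The astrocyte medians there were -0.12 and -0.14. Neuron sums had medians between 549 and 574.1 CPM from control to 400 µM. The part of these marker levels in the result was not tested.

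Hemopexin, the plasma protein that binds free heme with the highest affinity, left Alas1 higher than albumin did at the same dose and time. Alas1 with hemeHpx spanned 47.5 to 73.6 CPM with a median of 55.2, and 9 of 10 libraries lay below all controls. It did not overlap with heme-albumin at 200 µM, whose highest library was at 40.5 CPM. Against control Alas1 fell by 0.28 (95% interval -0.40 to -0.16, adjusted p = 0.0114), with 8.2% of genes called. Against heme-albumin at 200 µM it was 0.64 higher (0.52 to 0.76, adjusted p = 2.4e-11), which is 1.56 times the mean level, and ranked 2 by p among all genes, of which 25.9% were called. Replicate 4 alone stood within the control range, and without it the differences were -0.35 against control and 0.57 against heme-albumin.

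Urod was the other enzyme called between the carriers. Its levels with hemeHpx were 33.9, 35.7 and 42.5 CPM (lowest, median, highest), against 30.1, 32.5 and 36 CPM with heme-albumin at 200 µM. Of the hemeHpx libraries, 5 of 10 exceeded every heme-albumin library, and the fitted difference was 0.16 (adjusted p = 0.0198). Against control, hemeHpx gave Urod 0.12 higher (adjusted p = 0.0959) and Alad 0.19 higher (adjusted p = 0.0785), neither past the threshold. The intervals between the carriers were -0.14 to 0.16 for Alad, -0.04 to 0.22 for Uros, -0.11 to 0.15 for Cpox, -0.06 to 0.26 for Ppox and -0.15 to 0.03 for Fech. Summed astrocyte markers had a median of 8132 CPM with hemeHpx and summed microglia markers 474.9 CPM. Against heme-albumin, 2 of 5 astrocyte and 5 of 6 microglia markers were called higher with hemeHpx, where 13% of all genes were called higher. So were 2 of 5 oligodendrocyte and 1 of 4 endothelial markers. None of the 7 neuron markers was called, but 6 had differences above 0 (median 0.645). The part of these markers in the result was not tested.

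Genes that supply substrates or shape Alas1 were described from lists. These comprised 19 mitochondrial partners of heme synthesis and 15 transcriptional regulators of Alas1, 13 of which were tested. At 12.5 and 50 µM heme-albumin no member of either list was called. At 200 µM, where 13.6% of all genes were called, 4 partners were higher and none lower, and 1 regulator was higher and 1 lower. At 400 µM, where 29% of all genes were called, 7 partners were higher and 1 lower, and 3 regulators were higher and 1 lower. Median log2 changes at 400 µM were 0.08 for the partners and 0.05 for the regulators, against -0.01 over all genes.

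Several of these genes act next to the enzymes measured here. At 400 µM the mitochondrial iron importers Slc25a37 (mitoferrin 1) and Slc25a28 (mitoferrin 2) were higher by 0.45 and 0.18 on the log2 scale. The porphyrin transporter Abcb6 was higher by 0.50, the glycine-forming Shmt2 by 0.54, the mitochondrial proteases Lonp1 and Clpp by 0.35 and 0.20, and the heme-binding Pgrmc1 by 0.29. Among regulators, the heme-sensing nuclear receptor gene Nr1d1 rose by 0.59 at 200 µM and 1.02 at 400 µM, the heme-binding repressor gene Bach1 by 0.23 and the antioxidant factor gene Nfe2l2 by 0.27 at 400 µM, while the coactivator gene Ppargc1a fell by 0.36. Between hemeHpx and heme-albumin at 200 µM, where 25.9% of all genes were called, 5 partners and 4 regulators were lower with hemeHpx and 1 of each was higher, among them Shmt2 at -0.56, Abcb6 at -0.50, Nr1d1 at -0.49 and Nfe2l2 at -0.36.

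The genes whose level followed Alas1 most closely over the 60 libraries of batch 1 were ranked by Pearson correlation of log2 CPM among 15532 genes. The highest were Ccl12 (0.875), Ndrg2 (0.866), Hif3a (0.845), Cthrc1 (0.842) and Mt1 (0.842). The lowest were Gclm (-0.891), G6pdx (-0.884), Ephx1 (-0.872), Slc7a11 (-0.867) and Txnrd1 (-0.867). After centring on each group the correlations were 0.725 for Ccl12, 0.624 for Ndrg2 and -0.132 for Gclm, so the dose groups carried most of the Gclm value. In batches 2 and 3, centred on group, batch and experiment (107 libraries), they were 0.236, 0.402 and 0.278. The points share libraries, depth and tissue makeup. Over all 60 libraries no other enzyme was close to Alas1, with Urod at 0.375, Cpox at 0.164 and Alad at -0.24. Centred on group, Fech was at 0.468, Cpox at 0.383 and Urod at 0.155 in batch 1. In batches 2 and 3 the centred values were 0.0251, -0.0906 and 0.312, in the same order. Within groups the steadiest pair was Cpox and Fech, at 0.627 in batch 1 and 0.667 in batches 2 and 3.

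Hb, the protein that releases heme after hemorrhage, lowered Alas1 at 200 µM and 24 h. Alas1 in the 10 control libraries of batches 2 and 3 at 24 h spanned 53 to 67.5 CPM with a median of 58.5. With Hb at 200 µM the lowest, median and highest levels were 40.2, 46.3 and 51.5 CPM, and no library overlapped with the controls. With Hb at 400 µM they were 38.4, 48.5 and 63.6 CPM, and 8 of 10 lay below all controls. The fitted differences were -0.37 at 200 µM (SE 0.09, adjusted p = 0.0398) and -0.32 at 400 µM (adjusted p = 0.0529), the latter just missing the threshold. All genes called were 0.0971% and 0.522%. Without control replicate 8 the value at 200 µM was -0.36 with an adjusted p of 0.0535, and the call was also lost with batch as the sole term (adjusted p = 0.0662) and with no covariate (adjusted p = 0.0677).

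At 48 h the Alas1 difference with Hb did not pass the test. Control levels were 57.7 to 75.3 CPM with a median of 65.2 (n = 9). Hb at 200 µM gave 42.4 to 68.3 CPM with a median of 57, and Hb at 400 µM gave 41.3 to 76.7 CPM with a median of 55.9, both overlapping with controls. The differences were -0.25 (adjusted p = 0.476) and -0.24 (adjusted p = 0.362), among 0.31% and 0.601% of genes called. The doses of Hb differed by 0.05 at 24 h and 0.01 at 48 h on the log2 scale, and 0% of genes were called between them (138 and 177 genes at an unadjusted p under 0.05). Within E1 alone and E2 alone the 24 h differences at 200 µM were -0.38 and -0.33, neither called with fewer libraries.

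Fech moved the other way with Hb. Control libraries held 78.7 to 97.2 CPM of Fech at 24 h (median 84.9) and 78.3 to 89.1 CPM at 48 h (median 82.2). With Hb at 400 µM, levels were 87.6, 96.8 and 112.5 CPM at 24 h and 87.7, 98.4 and 102.9 CPM at 48 h. Of these libraries, 5 of 10 and 9 of 10 lay above all controls of their time. Fech was higher by 0.21 (adjusted p = 0.00847) and 0.22 (adjusted p = 0.00422). At 200 µM the differences of 0.14 (adjusted p = 0.996) and 0.18 (adjusted p = 0.0689) did not pass the test. In E1 alone the values at 400 µM were 0.21 and 0.20 and in E2 alone 0.20 and 0.26, and none of these was called. Alad, Uros, Urod, Cpox and Ppox were not called with Hb at either dose or time.

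**Figure D3:**
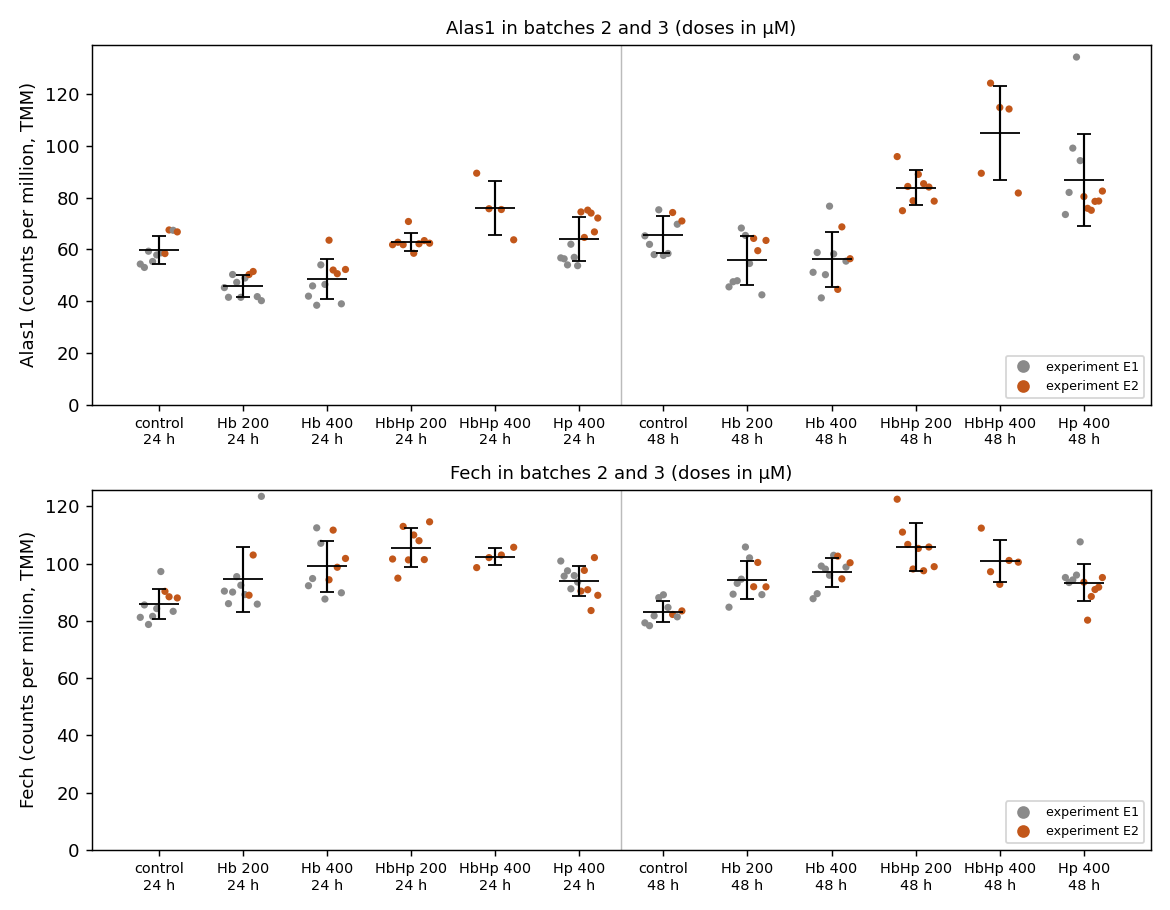
Alas1 and Fech levels (CPM, vertical axes from 0) in each library of batches 2 and 3 by treatment and time (horizontal axis), coloured by culture experiment, with the mean and SD of each group. Alas1 is lowest with Hb at 24 h and highest with HbHp at 400 µM and 48 h (median 114.3 CPM), and Fech is above most controls in the HbHp groups.

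Haptoglobin is the plasma protein that captures Hb in a stable complex. With HbHp, Alas1 was not lower than control and at 400 µM and 48 h it was higher. At 24 h the levels were 58.5, 62.3 and 70.8 CPM at 200 µM (n = 8) and 63.7, 75.6 and 89.5 CPM at 400 µM (n = 4). Differences against control were 0.01 (adjusted p = 0.991) and 0.28 (adjusted p = 0.206), among 1.93% and 5.15% of genes called. At 48 h the levels were 75, 84.2 and 95.9 CPM at 200 µM (n = 8), a difference of 0.27 that did not pass the test (adjusted p = 0.0852), with 11.9% of genes called. At 400 µM and 48 h the 5 libraries held 89.5, 124.3, 114.9, 114.3 and 81.8 CPM, all above the highest control at 75.3 CPM.

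That last difference was 0.60 (95% interval 0.36 to 0.83, adjusted p = 0.00017), where 11.9% of genes were called. The controls of batches 2 and 3 that shared batch 3 and E2 with the HbHp libraries were 1 at 24 h and 1 at 48 h. Within E2 alone the difference at 400 µM and 48 h was 0.52 (adjusted p = 0.013), and within batch 3 alone it was also 0.52 (adjusted p = 0.0678). HbHp at 400 against 200 µM gave 0.27 at 24 h and 0.32 at 48 h, neither called, among 0.176% and 0.127% of genes.

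Setting HbHp against Hb at the same dose and time, Alas1 was higher with the complex and the libraries did not overlap in any of the 4 pairs. Those levels take no account of batch and experiment, and Alas1 was 0.135 higher on the log2 scale in E2 than in E1. At 200 µM the differences were 0.38 at 24 h (adjusted p = 0.069, 0.607% of genes called) and 0.52 at 48 h (adjusted p = 0.00171, 4.98% called). At 400 µM they were 0.60 at 24 h (adjusted p = 0.00267, 2.21% called) and 0.83 at 48 h (95% interval 0.60 to 1.07, adjusted p = 1.01e-06, 4.28% called), the last a ratio of means of 1.87. Without HbHp 400 µM replicate 1 the 24 h value was 0.52 with an adjusted p of 0.0703. Within E2 alone, the 48 h differences were 0.42 at 200 µM (adjusted p = 0.0708) and 0.88 at 400 µM (adjusted p = 8.5e-05). Hb and HbHp groups were spread unevenly over batches, and only the 400 µM comparison at 48 h was called in every alternative tried.

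Fech was higher than in controls with HbHp in all 4 groups. Its levels at 24 h were 94.9, 104.8 and 114.6 CPM at 200 µM and 98.6, 102.5 and 105.7 CPM at 400 µM. At 48 h they were 97.5, 105.5 and 122.5 CPM at 200 µM and 92.8, 100.5 and 112.4 CPM at 400 µM. Groups did not overlap with controls except at 200 µM and 24 h, where 7 of 8 libraries lay above all controls. As above, such levels take no account of batch and experiment, and most controls were from other batches or experiments. At 24 h Fech was higher by 0.29 (adjusted p = 0.00134) and 0.24 (adjusted p = 0.0195). At 48 h it was higher by 0.34 (adjusted p = 3.4e-05) and 0.27 (adjusted p = 0.00261). The 24 h call at 400 µM was lost without HbHp replicate 2 or replicate 3 of that group. In E2 alone, the 48 h calls at both doses held (adjusted p = 0.00894 and 0.0463) and the 24 h values, 0.26 and 0.21, were not called. HbHp and Hb did not differ past the threshold in Fech at either dose or time, with intervals of 0.03 to 0.27, 0.04 to 0.27, -0.10 to 0.17 and -0.08 to 0.17 in the order 200 µM at 24 h and 48 h and 400 µM at 24 h and 48 h.

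Hp without Hb was the control for the binding protein. Alas1 with Hp at 400 µM spanned 53.7 to 75.2 CPM at 24 h (median 63.3, n = 12) and 73.5 to 134.4 CPM at 48 h (median 80.4, n = 11). The 24 h libraries overlapped with controls and differed by 0.09 (adjusted p = 0.824, 0.704% of genes called). At 48 h Alas1 was 0.39 higher (adjusted p = 0.00588, 10.8% of genes called). The experiments were unlike, with a mean of 96.7 ± 23.4 CPM in the 5 Hp libraries of E1 and 78.6 ± 2.77 CPM in the 6 of E2. Against their own controls the effects were 0.66 in E1 (adjusted p = 0.0008) and 0.11 in E2 (adjusted p = 0.902), and the difference of 0.50 between them did not pass the test over all genes (95% interval 0.14 to 0.87, adjusted p = 0.0942, with 742 of 17216 genes called). Replicate 4, from E1, held the highest Alas1 level at 134.4 CPM, and without it the 48 h difference was 0.29 (adjusted p = 0.0341).

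HbHp against Hp at 400 µM gave Alas1 differences of 0.19 at 24 h (adjusted p = 0.646, 0.619% of genes called) and 0.20 at 48 h (adjusted p = 0.329, 1.44% called). Within E2, which held all HbHp libraries and part of the Hp libraries, the 48 h difference was 0.41 (adjusted p = 0.00302). Fech with Hp was 0.12 higher at 24 h (adjusted p = 0.324) and 0.15 higher at 48 h (adjusted p = 0.0486). The 48 h call of Fech was lost without control replicate 7, control replicate 9 or Hp replicate 4. Its 11 libraries spanned 80.2 to 107.6 CPM, and 9 of them lay above all controls. No other enzyme was called with Hp. Against Hp at 400 µM, HbHp gave Fech differences of 0.12 at 24 h (adjusted p = 0.546) and 0.11 at 48 h (adjusted p = 0.329), neither called.

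**Figure D4:**
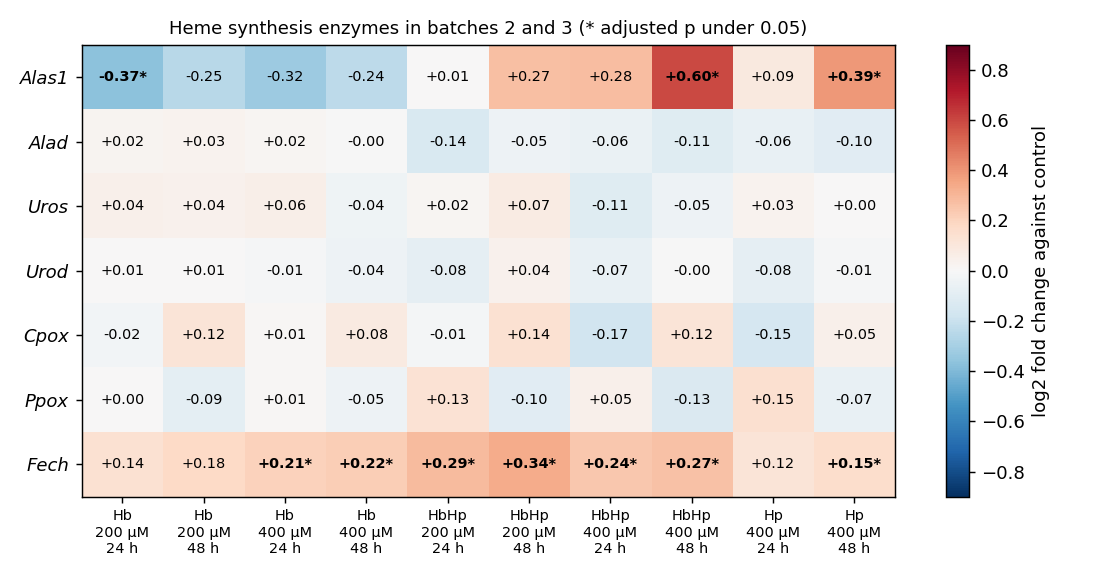
Fitted log2 fold change against control (colour scale, values printed) of the 7 enzymes (rows) for each treatment, dose and time of batches 2 and 3 (columns), with an asterisk at an adjusted p under 0.05. Alas1 goes from -0.37 with Hb at 200 µM and 24 h to 0.60 with HbHp at 400 µM and 48 h, and Fech is positive in every column.

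Microglia and astrocyte markers varied with HbHp and Hp. The sum of the 6 microglia markers had a median of 407.9 CPM in controls at 24 h (149.5 to 931.9) and 655.8 CPM at 48 h (203.2 to 1633). It was 554 CPM with HbHp at 200 µM and 703.8 CPM at 400 µM at 24 h, 910.3 and 834.2 CPM at 48 h, and 1060 CPM with Hp at 48 h. These sums overlapped with those of controls throughout and take no account of batch and experiment. With both as terms, all 6 microglia markers had differences from control below 0 with HbHp, with medians of -0.29 and -0.13 at 24 h and -0.46 and -0.49 at 48 h (200 and 400 µM), and 1 of 6 was called lower, at 400 µM and 48 h. Against Hb at 48 h the medians were -0.54 at 200 µM and -0.68 at 400 µM. With Hp at 48 h the median was 0.02 and none was called. The 5 astrocyte markers had medians of -0.21 and -0.39 with HbHp at 200 and 400 µM and -0.25 with Hp at 48 h, with 1 of 5 called lower in each. Of all genes, 4.85%, 4.56% and 5.88% were called lower in these comparisons, in the same order. The part of either marker list in the Alas1 and Fech results was not tested.

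Time in culture, compared within controls, gave a call for 1 of the 7 enzymes, Cpox. Cpox, the oxidase of coproporphyrinogen, spanned 63.4 to 97.7 CPM at 24 h (median 84.2) and 53 to 83.1 CPM at 48 h (median 62), with overlap. It fell by 0.31 from 24 to 48 h (SE 0.07, adjusted p = 0.00727), and 4.5% of genes were called. The value was -0.31 in E1 and -0.32 in E2, neither called alone, and Cpox was also 0.21 lower in batch 3 than in batch 2 (adjusted p = 0.00305). Alas1 was 0.15 higher at 48 h than at 24 h in controls, which did not pass the test (adjusted p = 0.356).

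No enzyme was called for a treatment effect that differed between 24 and 48 h. For Alas1 the differences of effect were 0.27 for HbHp at 200 µM (adjusted p = 0.469), 0.32 for HbHp at 400 µM (adjusted p = 0.79) and 0.30 for Hp (adjusted p = 0.337). For Hb they were 0.13 at 200 µM and 0.09 at 400 µM (adjusted p = 0.9999 and 0.9997). HbHp at 200 µM had 0.0121% of genes called, HbHp at 400 µM 0.0304%, and the other interactions 0%, with 118 to 1928 genes at an unadjusted p under 0.05. Between culture experiments, 68% of genes differed, including Urod (0.24 higher in E2, adjusted p = 5.0e-13), Cpox (0.14), Alas1 (0.14, adjusted p = 0.00713) and Uros (0.08), whereas Fech did not pass the test (-0.00164, adjusted p = 0.958).

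Partners and regulators were called with HbHp and Hp as well. With HbHp at 400 µM and 24 h, where 5.15% of all genes were called, 2 partners were higher and 1 lower, and 2 regulators were higher. At 48 h, where 11.9% of all genes were called, 2 partners were higher and 4 lower, and 3 regulators were higher. Slc25a37 rose by 0.53 and Pgrmc1 by 0.38, while Shmt2 fell by 0.37, Abcb8 by 0.29 and the glutathione carrier gene Slc25a39 by 0.15. The regulators were Bach1 (0.43), Rora (0.41), a nuclear receptor that opposes the Nr1d receptors, and Nr1d2 (0.33). With Hp at 48 h, where 10.8% of all genes were called, 1 partner was higher and 3 lower, and Bach1 (0.30), Rora (0.40) and Nr1d2 (0.26) were the regulators called. Shmt2 fell by 0.50 there, and it had risen by 0.54 with 400 µM heme-albumin in batch 1. Medians over the lists stayed between -0.07 and 0.09 in the HbHp and Hp comparisons at 48 h, against -0.01 to 0.01 over all genes.

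Hmox1, the heme-induced gene of heme breakdown, is set beside Alas1. In batch 1 the Hmox1 mean went from 1349 CPM in controls to 1852, 2746, 3372 and 4585 CPM with rising heme-albumin and was 2326 CPM with hemeHpx. Hmox1 was not called at 12.5 µM (0.46, adjusted p = 0.614), the dose at which Alas1 was called, and was called at 50 µM (1.03, adjusted p = 0.000414). Between hemeHpx and heme-albumin at 200 µM Hmox1 was 0.54 lower (adjusted p = 0.0263), where Alas1 was 0.64 higher. In batches 2 and 3 the order was different. At 48 h the Hmox1 mean was 1702 CPM in controls, 3113 and 3169 CPM with Hb, 3938 CPM with Hp, and 5315 and 6059 CPM with HbHp at 200 and 400 µM, so the group with the highest Hmox1 also had the highest Alas1 (104.9 ± 18.3 CPM, n = 5). Hmox1 was 1.41 higher than control there (adjusted p = 9.2e-06). With Hp alone, where no Hb or heme was added, the Hmox1 mean was above that of controls at 24 h as well (2711 against 1489 CPM). These means take no account of batch and experiment.

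**Figure D5:**
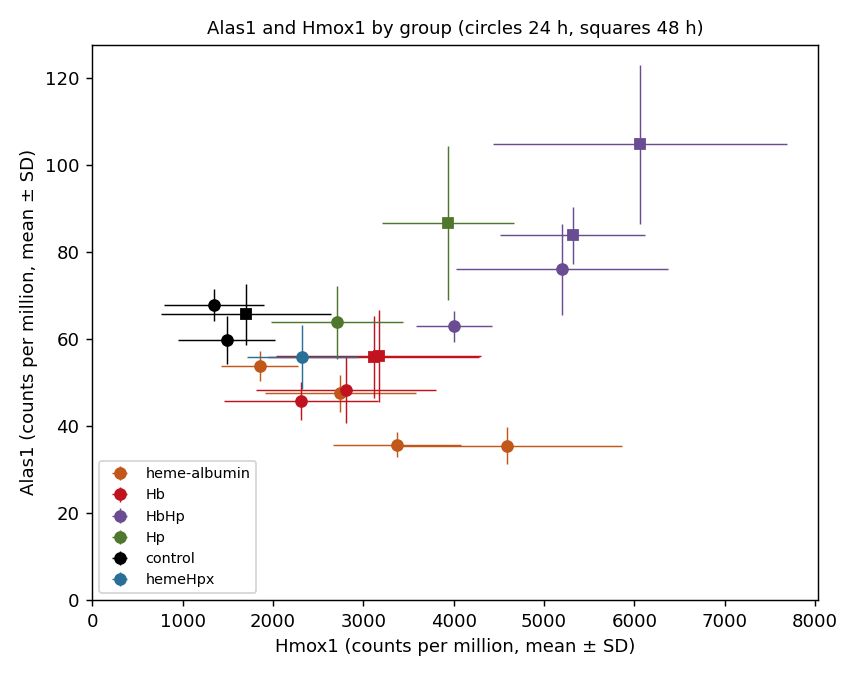
Mean Alas1 (vertical axis, CPM) against mean Hmox1 (horizontal axis, CPM) of each group, with SD bars over libraries, circles at 24 h and squares at 48 h. In batch 1 Alas1 goes down from 67.9 to 35.6 CPM as Hmox1 goes up from 1349 to 4585 CPM, whereas the HbHp groups lie high on both axes.

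Reads of neighbouring genes bear on some levels. In GENCODE M21 an antisense transcript, 4930500F10Rik, shares 465 exon bases with Alas1, Gpr15 shares 204 with Cpox on the opposite strand, and B4galt3 shares 791 with Ppox. Whether the counting used strand is not given in the sources used here, so reads from these partners cannot be told apart from those of the enzymes.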

How the data were processed

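Total RNA of brain slices was extracted with the Lexogen SPLIT kit and made into TruSeq mRNA libraries. The authors deposited, per the labels, raw read counts per Ensembl gene for each of 188 libraries, and featureCounts and build GRCm39 are named in the submitters' processing notes. The aligner, the annotation and the strand setting are not given in the sources used here.

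Groups came from treatment tags and titles. 21 libraries with conflicting labels entered no comparison. Counts were fitted in R 4.3.3 with edgeR 4.0.16 (filterByExpr, trimmed mean of M-values, quasi-likelihood test, Benjamini-Hochberg over all genes, two-sided), in batch 1 without covariates and in batches 2 and 3 with batch and culture experiment as terms. Control, dose, carrier, time and interaction contrasts were tested. DESeq2 1.42.0, the study's tool, was an alternative. The script was tested on simulated counts. The members and lists were chosen with earlier results of these data known. All 7 enzymes were named, with Hmox1, called list members and the 5 genes at each end of the correlation with Alas1. Some genes of the pathway and its lists are not reported here.

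Of 630 library pairs within groups compared by chi-square, none differed by less than the sampling noise (lowest chi-square per degree of freedom 3.48). Symbols, exon lengths and overlaps came from GENCODE M21 on GRCm38 and promoter windows from RefSeq. No genome coordinates were taken from the count files. Alternatives were another scaling, no filter, DESeq2, a GC and length correction, sex, a replicate block, other batch terms, parts of the data and left-out libraries.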

Additional observations from a re-analysis of the deposited data

Results flagged for a closer look

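Within groups of 4 to 10 libraries, 112 combinations of enzyme and group were looked at for a single library far from the rest, and 11 were found where chance flags about 1 in 20 groups, or 5.6. The values are CPM, and each is a library at the end of its group's range by a wide gap.

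Alas1 had a high library at 12.5 µM heme-albumin (replicate 8, 61.9, with the next at 56.1), with hemeHpx (replicate 4, 73.6, next 60) and with HbHp at 200 µM and 24 h (replicate 4, 70.8, next 63.4). Fech had a high library with hemeHpx (replicate 8, 103, next 86.1) and with Hb at 200 µM and 24 h (replicate 10, 123, next 103). Alad and Ppox were lowest in hemeHpx replicate 8 as well, at 12.9 (next 15.1) and 26.3 (next 32). That library has the lowest total count of its group, 15244938, and the part of depth was not tested. Uros was low in 1 control library of batch 1 (replicate 5, 7.48, next 10.5). Urod was low with HbHp at 200 µM and 24 h (replicate 8, 28, next 32.1) and with Hb at 400 µM and 48 h (replicate 3, 20.2, next 29.2). Cpox was high with HbHp at 400 µM and 48 h (replicate 1, 85.7, next 66).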

How the results depend on the processing

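Of 456 alternatives over 36 enzyme results, 383 kept direction and side of the threshold, 51 lost a call, 14 gained one and 8 reversed. Alas1 was called with every dose of heme-albumin and with hemeHpx under all alternatives tried there. The alternatives by E1 alone, by batch 3 with E2, and without single hemeHpx or Hp libraries were chosen after seeing the data. The smallest groups, HbHp at 400 µM, held 4 libraries at 24 h and 5 at 48 h. Some alternatives fitted fewer libraries, and the cause of the changes below was not tested.

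The number of enzymes called moved as follows. E2 alone, E1 alone, batch 3 alone and batch 3 with E2 took control 48 h against 24 h, Hb 400 µM at 24 h and Hb 400 µM at 48 h from 1 to 0. Hb 200 µM at 24 h went from 1 to 0 in E2, E1 and batch 3 alone, with batch as the sole term and with no covariate, and from 1 to 0 without single control libraries (range 0 to 1). Hb 200 µM at 48 h went from 0 to 1 (Fech) with DESeq2, sex and the replicate block, and Hb 400 µM at 24 h from 1 to 2 with DESeq2, RLE scaling, the GC and length correction, the block and without control replicate 7 (range 1 to 2). HbHp 200 µM went from 1 to 0 at 24 h in E2 and in batch 3 with E2, and at 48 h to 2 with the GC and length correction or batch alone, 3 with no covariate and 0 in batch 3 with E2. HbHp 400 µM at 24 h went from 1 to 0 with the GC and length correction, in E2, batch 3 or both, to 2 with no covariate, and ranged from 0 to 1 with single libraries left out. At 48 h it went from 2 to 1 in batch 3 and to 0 in batch 3 with E2. HbHp against Hb at 200 µM went from 0 to 1 with DESeq2 or batch alone and 2 with no covariate at 24 h, and from 1 to 2 with the block, 3 with no covariate and 0 in E2, batch 3 or both at 48 h. At 400 µM it went from 1 to 0 in batch 3 with E2 and ranged from 0 to 1 without single libraries at 24 h, and to 2 with no covariate at 48 h. HbHp against Hp at 48 h went from 0 to 1 in E2 and in batch 3 with E2. Hp at 24 h went from 0 to 1 (Cpox) with no covariate, and Hp at 48 h from 2 to 1 with no filter, the GC and length correction and E1 alone and to 0 in E2, batch 3 or both (range 1 to 2 without single libraries). In batch 1, 200 µM heme-albumin went from 1 to 2 with the block, 400 µM from 2 to 1 with its 2 groups alone, the dose order from 2 to 1 with RLE or no filter, hemeHpx from 1 to 2 with the block (range 1 to 2 without single libraries) and hemeHpx against heme-albumin from 2 to 1 with no filter.

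Alas1 with HbHp 200 µM at 24 h (0.00551) reversed to -0.00427 with RLE, -0.00434 with DESeq2, -0.0623 with the block, -0.0232 in E2, -0.146 in batch 3, -0.0833 in both, and ranged from -0.0102 to 0.0149 without single controls. Alas1 with Hp at 24 h reversed to -0.0787 in batch 3. The library codes paired the samples only in part. Same-coded libraries correlated at a mean of 0.136 in batch 1 and 0.0653 in batches 2 and 3, with 94 of 169 and 124 of 291 pairs over 0.1. Libraries with different codes correlated at means of -0.0154 and -0.0035. The main fit held no term for the code, and the block result is given here only.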

Other observations

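Libraries that the labels put in no group were measured as well. 20 libraries carry a tag that joins Hb with hemopexin at 400 µM, and their titles and library names do not agree on the binding protein. In E1, Alas1 of the 7 such libraries at 24 h ranged from 43.7 to 63.1 CPM with a median of 47.8, beside 53.6 to 67.5 CPM in the E1 controls. The 7 at 48 h ranged from 45.7 to 74.7 CPM with a median of 67.5, beside controls of 58.9 to 75.9 CPM. In E2, the 3 libraries at 24 h spanned 57.1 to 71 CPM and the 3 at 48 h 57.3 to 85.1 CPM. Fech in E1 ranged from 67.1 to 89.8 CPM at 24 h, where the controls ranged from 79.5 to 99.1 CPM. A control library with an unreadable treatment tag held 66.9 CPM of Alas1. Scaling included these libraries, so control levels differ slightly from those above.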
